A study of Mus musculus with 4 samples.

Results

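Genes of nucleoporins, of the importins and exportins that pass through them, and of the Ran cycle were followed in leukaemia cells. The cells were WT or had a conditional knockout of Ybx1. Members were the table's rows with the symbols Nup plus a digit, Kpna, Kpnb or Ranbp at the start, or Ipo or Xpo plus a digit. To these were added Ran, Rangap1, Rcc1, Tpr, Rae1, Seh1l, Ndc1, Pom121, Aaas, Tnpo1, Tnpo2, Tnpo3, Cse1l, Nutf2 and Nxf1. The rule found 62 of the 28141 genes, and 61 of them entered the test. All 61 lay above the minimum level in all 4 libraries, so none passed through one genotype alone.

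The nuclear pore complex is a ring-shaped channel in the nuclear envelope, built from scaffold rings, membrane anchors and a channel filled with flexible nucleoporins. Carriers of the importin and exportin families bind cargo and cross this channel. The small GTPase Ran sets the direction: its GTP form, made in the nucleus by Rcc1, unloads importins and loads exportins, and Rangap1 switches it off in the cytoplasm. Bulk messenger RNA leaves mainly through the receptor Nxf1, which does not use Ran. The complex is taken apart and rebuilt at each mitosis, and dividing cells make many new pores.

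Polyadenylated RNA came from bone marrow leukaemia cells of C57BL/6 mice, named LSCs in the labels, in a study of chronic myeloid leukaemia. There were 2 WT libraries (LSCs-WT) and 2 with a conditional knockout of Ybx1 (LSCs-YBX1cKO, here cKO). The product of Ybx1 is a nucleic acid binding protein of the Y-box family. The sources used here do not give the leukaemia driver, the Cre line, the deleted exons, or the age and number of mice. The labels do not say whether replicates are separate animals, and the p-values reflect the scatter among these 4 libraries, which may be technical. The table gives 1 log-scale score per gene and library and no counts, so depth is unknown. Log2 levels here are the deposited scores times 0.693, a factor inferred from replicate noise. If the scores were plain log2, each fold change would be 1.44 times as large on the log2 scale with the same p-values. Fold changes are cKO minus WT with their SE, and a gene was called at a limma adjusted p (Benjamini-Hochberg over all 15527 genes tested) under 0.05. In bulk RNA, fewer cells of a type and less RNA per cell cannot be told apart.

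Ybx1 had log2 levels of 9.31 and 9.41 in WT and 8.19 and 8.13 in cKO. It fell 2.29-fold (log2 fold change -1.20, SE 0.08, limma adjusted p = 1.08e-11). Ybx1 RNA was thus reduced in cKO but not absent. For the marker counts that follow, 17.8% of all tested genes were called lower and 19.5% higher. All 10 listed proliferation genes and all 10 listed replication genes were called lower. Their summed levels per 1000000 of the library sum were 1017 to 1044 and 2012 to 2054 in WT, and 404 to 409 and 907 to 937 in cKO. Of the mature neutrophil markers 3 of 10 had a row and all 3 were called higher, with sums of 300 to 325 in WT and 1066 to 1071 in cKO. Of 7 measured monocyte and macrophage markers 5 were called higher (sums 6654 to 6765 and 10585 to 10620). On this scale Lyz2 went from a mean of 1128 in WT to 4910 in cKO, and Adgre1 from 5215 to 5094. On the log2 scale limma called Adgre1 higher by 0.09. Cd14, Cd68 and Ccr2 were also called higher. The macrophage marker Adgre1 had a mean log2 level of 15.82 in WT. Of 2 measured markers for each of T and NK cells, erythroid cells and granulocyte progenitors, 2 lower, 1 lower and 1 higher were called. The 1 measured B cell marker, Cd79b, was called higher. Of 6 megakaryocyte markers 2 were called higher and 1 lower, and of 5 tested stromal and endothelial markers 1, Pecam1, was called lower. The part of these differences in the results below was not tested.

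Most changes among the transport genes were falls. Of the 61 tested, 30 fell (49.2%) and 3 rose, beside 17.8% of all tested genes called lower and 19.5% called higher (37.4% in either direction). The 3 that rose were Seh1l, Xpo6 and Ranbp10. The median log2 fold change of the 61 was -0.24, and that of all tested genes was 0.0025. Both cKO libraries lay below both WT libraries for 36 of the 61, beside 32.4% of all tested genes, and above them for 8, beside 32.7%. In either direction the genotypes did not overlap for 44 members and for 65.1% of all tested genes. Of the 61 tested members, 3 were called and at least 2-fold lower, beside 3.1% of all tested genes. At the 1.5-fold limit 12 of the 61 were called lower, beside 7.34%. With a prior variance that did not follow the level, 13 members fell (Nup107, Nup133, Nup160, Nup37, Nup188, Nup210, Ndc1, Kpna2, Kpna3, Ipo7, Xpo5, Ran and Rcc1) and 1, Ranbp10, rose, beside 7.02% and 7.58% of all genes. Scaling each library by its sum shifted the median of all genes by -0.12 and gave 43 lower and 2 higher members, beside 26.1% and 13.7% of all genes. After each library was shifted to the same median, 29 were lower and 9 higher, beside 15.2% and 23.4%.

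**Figure D1:**
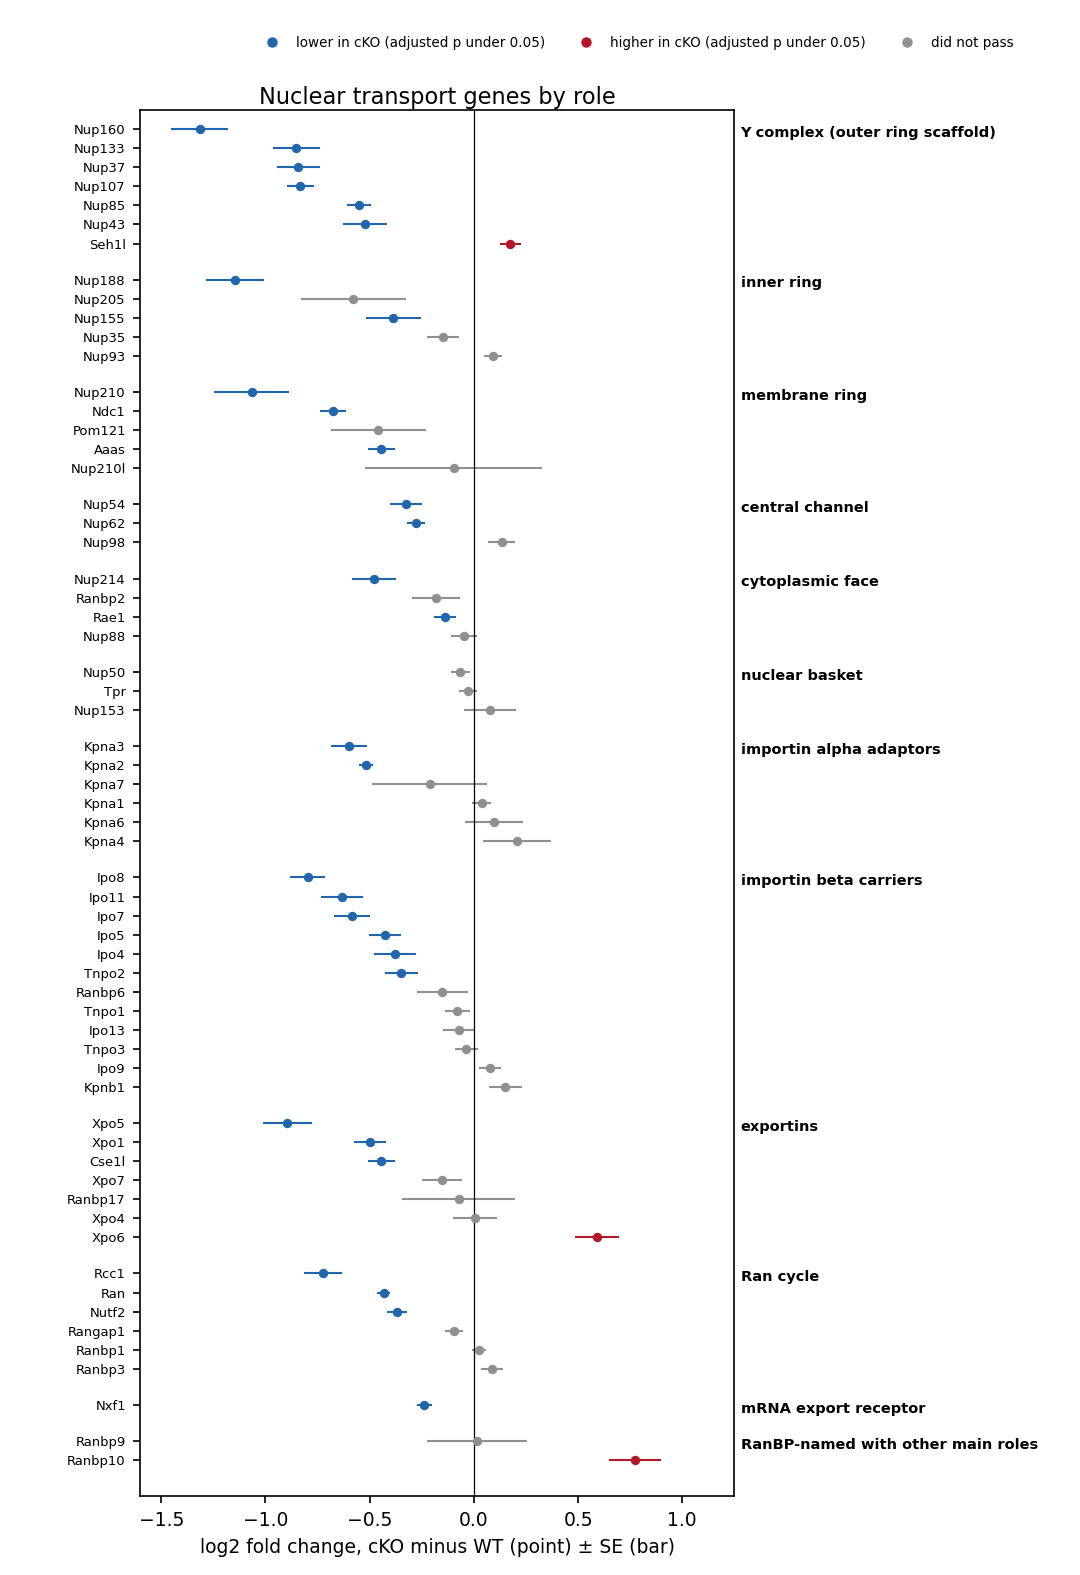
Log2 fold change (cKO minus WT, horizontal axis) with SE bars for the 61 tested members, grouped by role; blue points were called lower, red points higher, and grey points did not pass. The genes grouped as Y complex lie between -1.32 and -0.52 except Seh1l, which lies above 0, while the 3 basket members lie near 0.

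The outer ring of the pore, built from Y-shaped complexes, held the gene with the largest fall. Of the 7 genes grouped here, 6 fell and 1, Seh1l, rose, beside 17.8% and 19.5% of all tested genes. Their median log2 fold change was -0.83. The Nup98 gene, which also encodes the Y complex subunit Nup96, is grouped with the central channel and did not pass (log2 fold change 0.13). Sec13, a further subunit outside the rule, did not pass and is given below. Nup160, which with Nup37 forms one arm of the Y, lies on chromosome 2 from 90677215 to 90736328 on the forward strand (GRCm38). Its log2 levels were 7.95 and 7.89 in WT and 6.74 and 6.47 in cKO, the largest fall of any member (log2 fold change -1.32, SE 0.14, limma adjusted p = 2.5e-08). Both cKO libraries stood far below both WT libraries. Nup107, which with Nup133 forms the stem of the Y, had 9.84 and 9.83 in WT and 8.97 and 9.04 in cKO. It fell 1.78-fold (log2 fold change -0.83, SE 0.07, limma adjusted p = 1.72e-10), and its replicates lay closer together than those of Nup160. Nup85, the base of the other arm, fell from 10.35 and 10.41 to 9.75 and 9.91 (log2 fold change -0.55, SE 0.06, limma adjusted p = 3.83e-08). Nup133 fell 1.80-fold and the small propeller subunits Nup37 and Nup43 fell 1.79-fold and 1.44-fold. Part of Nup133 (10.4% of its exon bases) overlaps another annotated gene, whose reads may not be told apart.

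Seh1l, a propeller protein of the Y complex that also serves the GATOR2 complex of amino acid sensing, went the other way by a small amount. Its log2 levels were 10.28 and 10.24 in WT and 10.43 and 10.44 in cKO, with no overlap (log2 fold change 0.17, SE 0.05, limma adjusted p = 0.00691). That call was lost without WT replicate 2 (limma adjusted p = 0.075), with a prior variance that did not follow the level (0.165), under quantile normalization (log2 fold change 0.12) and under library sum scaling (log2 fold change 0.05). Sec13, the other subunit shared with GATOR2 and not found by the rule, did not pass (log2 fold change 0.06, SE 0.04, limma adjusted p = 0.278). It was called higher after the median shift (0.12) and had the opposite sign under quantile normalization (-0.05) and library sum scaling (-0.07).

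Changes in the inner ring, which lines the membrane between the outer rings, were uneven. Of its 5 genes 2 fell and 3 did not pass. The 40% called lie near the 37.4% of all tested genes called in either direction (17.8% lower). Nup188 had log2 levels of 7.80 and 7.72 in WT and 6.49 and 6.74 in cKO (log2 fold change -1.15, SE 0.14, limma adjusted p = 3.15e-07). It lies on chromosome 2 from 30286397 to 30344266, and 12.4% of its exon bases overlap another annotated gene. Its close relative Nup205 had 5.83 and 6.16 in WT and 5.05 and 5.78 in cKO, wider apart within each genotype. Nup205 did not pass (log2 fold change -0.58, SE 0.25, limma adjusted p = 0.0764), but did without cKO replicate 2 (log2 fold change -0.95), under library sum scaling (-0.70) and with a replicate block (limma adjusted p = 0.0435). Without cKO replicate 1 the log2 fold change of Nup205 was -0.21 (limma adjusted p = 0.554). Nup155 fell from 8.05 and 7.89 to 7.35 and 7.82 (log2 fold change -0.39, SE 0.13, limma adjusted p = 0.0233). Its call was lost without cKO replicate 1 (log2 fold change -0.15) and without WT replicate 1 (-0.31), and the value was -0.62 without cKO replicate 2. It was also lost under quantile normalization (limma adjusted p = 0.0709), with no filter on low values (0.286) and with a prior variance that did not follow the level (0.278). Nup93, the linker that ties the inner ring together, had 10.95 and 10.89 in WT and 11.00 and 11.02 in cKO and did not pass (log2 fold change 0.09, SE 0.04, limma adjusted p = 0.0962). Nup93 was called higher after the median shift (0.15) and had the opposite sign under library sum scaling (-0.03). Nup35 did not pass either (log2 fold change -0.15).

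Of the 5 genes grouped as membrane anchors or held by them, 3 fell, beside 17.8% of all tested genes called lower. Nup210, a transmembrane glycoprotein of the pore, had log2 levels of 6.98 and 6.91 in WT and 5.75 and 6.01 in cKO (log2 fold change -1.06, SE 0.18, limma adjusted p = 3.37e-05). Ndc1, a transmembrane subunit needed for pore assembly, had 9.87 in both WT libraries and 9.17 and 9.22 in cKO (log2 fold change -0.68, SE 0.06, limma adjusted p = 3.38e-09). Aaas, which Ndc1 holds at the pore, fell from 10.13 and 9.99 to 9.68 and 9.55 (log2 fold change -0.44, SE 0.06, limma adjusted p = 3.24e-06). All 3 stood lower in both cKO libraries. Pom121, another transmembrane nucleoporin, overlapped between genotypes (6.48 and 6.05 in WT, 5.51 and 6.11 in cKO) and did not pass, but did without cKO replicate 2 (log2 fold change -0.76) and under library sum scaling (-0.58). Without cKO replicate 1 its log2 fold change was -0.16 (limma adjusted p = 0.64), and 11.9% of its exon bases overlap another annotated gene. Nup210l, a relative of Nup210, was low and did not pass.

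In the central channel 2 of 3 tested genes fell, beside 17.8% of all tested genes. Nup62, a main component of the channel's flexible filling, had log2 levels of 10.94 and 10.98 in WT and 10.70 and 10.66 in cKO (log2 fold change -0.28, SE 0.04, limma adjusted p = 1.48e-05). Its partner Nup54 fell from 9.15 and 9.26 to 8.80 and 8.95 (log2 fold change -0.33, SE 0.08, limma adjusted p = 0.0014). Nup98, which the channel shares with the nuclear interior, had 10.02 and 9.90 in WT and 10.21 and 9.98 in cKO. It did not pass (log2 fold change 0.13), but did without cKO replicate 2 (0.25), without WT replicate 1 (0.19) and after the median shift (0.20). Without cKO replicate 1 the log2 fold change of Nup98 was 0.02 (limma adjusted p = 0.864). Nup58 is listed under its older symbol Nupl1, outside the rule, and lay below the minimum level. Nup62cl was not analysed here.

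On the cytoplasmic face 2 of 4 genes fell, beside 17.8% of all tested genes. Nup214, a docking site for exported cargo, had 8.68 and 8.46 in WT and 7.95 and 8.23 in cKO (log2 fold change -0.48, SE 0.11, limma adjusted p = 0.00072). Rae1, which binds Nup98 and messenger ribonucleoproteins, had 10.31 and 10.32 in WT and 10.22 and 10.14 in cKO (log2 fold change -0.14, SE 0.05, limma adjusted p = 0.0375). Its call was lost without either WT library (limma adjusted p = 0.125 and 0.156), without cKO replicate 2 (limma adjusted p = 0.201), after the median shift (0.28), with no filter on low values (0.122) and with a prior variance that did not follow the level (0.259). Ranbp2, the main protein of the cytoplasmic filaments, overlapped between genotypes (8.68 and 8.47, then 8.17 and 8.62), and it did not pass (log2 fold change -0.18). It was called lower without cKO replicate 2 (-0.41) and under library sum scaling (-0.31), and its sign turned without cKO replicate 1 (0.04, limma adjusted p = 0.791). Nup88 did not pass (log2 fold change -0.05). Nup42, listed as Nupl2 and so outside the rule, fell (log2 fold change -0.55, SE 0.11, limma adjusted p = 0.000175).

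None of the 3 nuclear basket genes passed with limma, beside 37.4% of all tested genes called, and 0 of them had an unadjusted p under 0.05. Tpr, the main filament of the basket, had 11.27 and 11.15 in WT and 11.19 and 11.17 in cKO (log2 fold change -0.03, SE 0.04). The log2 fold change was -0.06 (SE 0.04) for Nup50 and 0.08 (SE 0.12) for Nup153. Under quantile normalization Tpr and Nup50 were called lower (log2 fold changes -0.13 and -0.15), and under library sum scaling too. The difference between the basket and the outer ring was not tested.

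**Figure D2:**
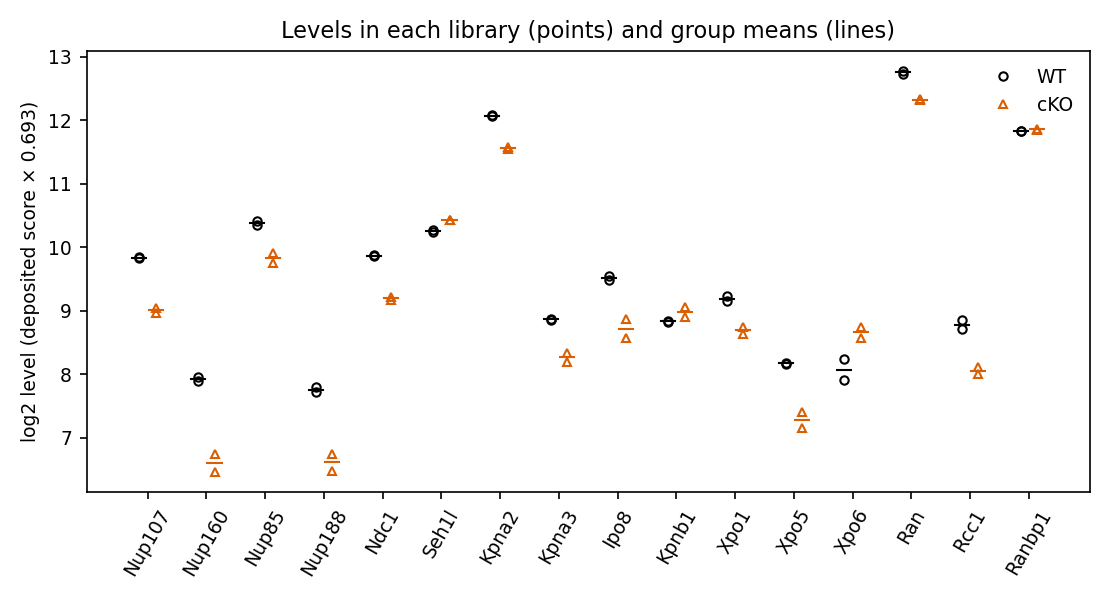
Log2 level (deposited score times 0.693, vertical axis) of 16 members in the 2 WT libraries (circles) and the 2 cKO libraries (triangles), with lines at the group means. Nup160 and Nup188 show the widest gaps downward, Xpo6 lies higher in both cKO libraries, and the Ranbp1 points nearly coincide.

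Among the importin alpha adaptors, which read classical nuclear localisation signals, 2 of 6 fell and 4 did not pass. The 33.3% called lie near the 37.4% of all tested genes called in either direction (17.8% lower). Kpna2, the adaptor best known from dividing cells, had log2 levels of 12.09 and 12.06 in WT and 11.54 and 11.57 in cKO (log2 fold change -0.52, SE 0.03, limma adjusted p = 8.29e-12). It lies on chromosome 11 from 106988629 to 106999541 on the reverse strand. Kpna3 had 8.86 and 8.87 in WT and 8.33 and 8.20 in cKO (log2 fold change -0.60, SE 0.09, limma adjusted p = 3.7e-06). Both stood clear of the WT range. Kpna1 had 10.72 and 10.70 in WT and 10.72 and 10.78 in cKO and did not pass (log2 fold change 0.04, SE 0.05). Kpna6 and Kpna7, the latter known from oocytes and early embryos, did not pass (log2 fold changes 0.10 and -0.21). Kpna4 had 7.65 and 6.94 in WT and 7.57 and 7.43 in cKO, and was called higher only without WT replicate 1 (log2 fold change 0.56). Without WT replicate 2 its sign turned (-0.15, limma adjusted p = 0.588).

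Of the 12 importin beta family carriers 6 fell, beside 17.8% of all tested genes, and 6 did not pass. Kpnb1, the carrier that pairs with the importin alpha adaptors, had log2 levels of 8.84 and 8.82 in WT and 8.90 and 9.07 in cKO. Its groups did not overlap, but it did not pass (log2 fold change 0.15, SE 0.08, limma adjusted p = 0.146). It was called higher without cKO replicate 1 (log2 fold change 0.23) and after the median shift (0.21). Ipo8, related to Ipo7 and linked to small RNA proteins, had 9.54 and 9.49 in WT and 8.86 and 8.57 in cKO (log2 fold change -0.80, SE 0.08, limma adjusted p = 2.57e-08). Ipo7, which carries ribosomal proteins and histones among others, had 8.78 and 8.79 in WT and 8.17 and 8.23 in cKO (log2 fold change -0.58, SE 0.09, limma adjusted p = 5.67e-06). Ipo11 fell 1.55-fold, and Ipo5, an importer of ribosomal proteins and histones, 1.35-fold. Ipo4 and Tnpo2 fell 1.30-fold and 1.27-fold. Of the exon bases of Ipo4, 55.3% are shared with another annotated gene, so its value is uncertain, and 11.7% of those of Tnpo2 overlap another gene. The other 5 did not pass: Tnpo1, the carrier of hnRNP proteins, had a log2 fold change of -0.08, and Tnpo3, the carrier of SR splicing factors, of -0.04. Ipo9, Ipo13 and Ranbp6 had 0.08, -0.07 and -0.15. Ipo9 was called higher after the median shift (0.14) and had the opposite sign under library sum scaling (-0.05).

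The exportins moved in both directions. Of 7 tested, 3 fell and 1 rose, beside 17.8% and 19.5% of all tested genes, and 3 did not pass. Xpo1, the general exporter of proteins with leucine-rich signals, had log2 levels of 9.24 and 9.15 in WT and 8.64 and 8.75 in cKO (log2 fold change -0.50, SE 0.08, limma adjusted p = 1.11e-05). It lies on chromosome 11 from 23256041 to 23298249. Xpo5, which exports microRNA precursors, had 8.16 and 8.18 in WT and 7.41 and 7.15 in cKO (log2 fold change -0.89, SE 0.12, limma adjusted p = 1.03e-06). Both genes stood below the WT range in both cKO libraries. Cse1l, which returns importin alpha to the cytoplasm, had 10.11 in both WT libraries and 9.77 and 9.57 in cKO (log2 fold change -0.44, SE 0.06, limma adjusted p = 3.3e-06). Xpo6, the exporter of actin and profilin, rose, from 8.24 and 7.90 to 8.58 and 8.74 (log2 fold change 0.59, SE 0.11, limma adjusted p = 6.77e-05). Both cKO libraries lay above both WT libraries. The call was lost with no filter on low values (limma adjusted p = 0.0594) and with a prior variance that did not follow the level (0.0981). Xpo6 lies on chromosome 7 from 126101715 to 126200501 on the reverse strand. Xpo4, Xpo7 and the Xpo7 relative Ranbp17 did not pass (log2 fold changes 0.01, -0.15 and -0.07). The transfer RNA exporter Xpot, outside the rule, fell by 0.18 (limma adjusted p = 0.00482), a call lost without WT replicate 2 (limma adjusted p = 0.0585) and after the median shift (0.0616).

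In the Ran cycle 3 of 6 tested genes fell, beside 17.8% of all tested genes. Ran had log2 levels of 12.78 and 12.73 in WT and 12.33 and 12.31 in cKO (log2 fold change -0.43, SE 0.03, limma adjusted p = 1.34e-11), on chromosome 5 from 129020069 to 129024323. Rcc1, the chromatin-bound exchange factor that loads Ran with GTP, had 8.85 and 8.71 in WT and 8.004 and 8.11 in cKO (log2 fold change -0.72, SE 0.09, limma adjusted p = 6.04e-07). Nutf2, which brings Ran back into the nucleus, had 10.68 and 10.65 in WT and 10.34 and 10.26 in cKO (log2 fold change -0.37, SE 0.05, limma adjusted p = 1.19e-06). Rangap1, the GTPase activator, had 11.09 and 11.12 in WT and 11.05 and 10.97 in cKO and did not pass (log2 fold change -0.10, limma adjusted p = 0.0816). It was called lower without cKO replicate 1 (log2 fold change -0.14), under quantile normalization (-0.19) and under library sum scaling (-0.22). Its helper Ranbp1 stood at 11.84 and 11.83 in WT and 11.86 and 11.85 in cKO (log2 fold change 0.03, SE 0.03, limma adjusted p = 0.597). Ranbp1 had the opposite sign and was called lower under quantile normalization (-0.09) and library sum scaling (-0.10), and was called higher after the median shift (0.09). Of its exon bases 20.1% are shared with another annotated gene on the same strand, whose reads may not be told apart. Ranbp3, a cofactor of Xpo1, did not pass (log2 fold change 0.09). It was called higher after the median shift (0.15) and had the opposite sign under library sum scaling (-0.04). Ranbp3l lay below the minimum level. The table also has rows for the Nutf2 copies Nutf2-ps1 and Nutf2-ps2, so reads of near-identical copies could be split.

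Nxf1, the messenger RNA export receptor, had log2 levels of 11.68 in both WT libraries and 11.43 and 11.45 in cKO (log2 fold change -0.24, SE 0.04, limma adjusted p = 7.79e-06). Ranbp10 and Ranbp9 carry the name but belong to a ubiquitin ligase complex. Ranbp10 showed the largest rise of any member, from 7.02 and 7.17 to 7.85 and 7.88 (log2 fold change 0.77, SE 0.12, limma adjusted p = 1.58e-05), on chromosome 8 from 105768308 to 105827350. Ranbp9 overlapped between genotypes (5.87 and 6.12, then 5.59 and 6.42).

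Per exon length the pathway's most abundant members were soluble factors. In WT the mean level per 1000000 of the library sum and per 1000 bases of exon was 235 for Ran, 197 for Ranbp1 and 135 for Kpna2. Nutf2, Nxf1 and Nup62 followed at 71.9, 66.7 and 62.7. At the low end on this scale stood Nup205 at 0.62, Ranbp17 at 0.42 and Nup210l at 0.18. Among the Y complex members the same quantity ranged from 2.49 for Nup160 to 35.4 for Nup85. The 3 members that fell at least 2-fold, Nup160, Nup188 and Nup210, had 2.49, 3.12 and 1.06, which are low values within the list. Exon length counted all annotated exons of a gene, so long alternative exons lower the value.

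**Figure D3:**
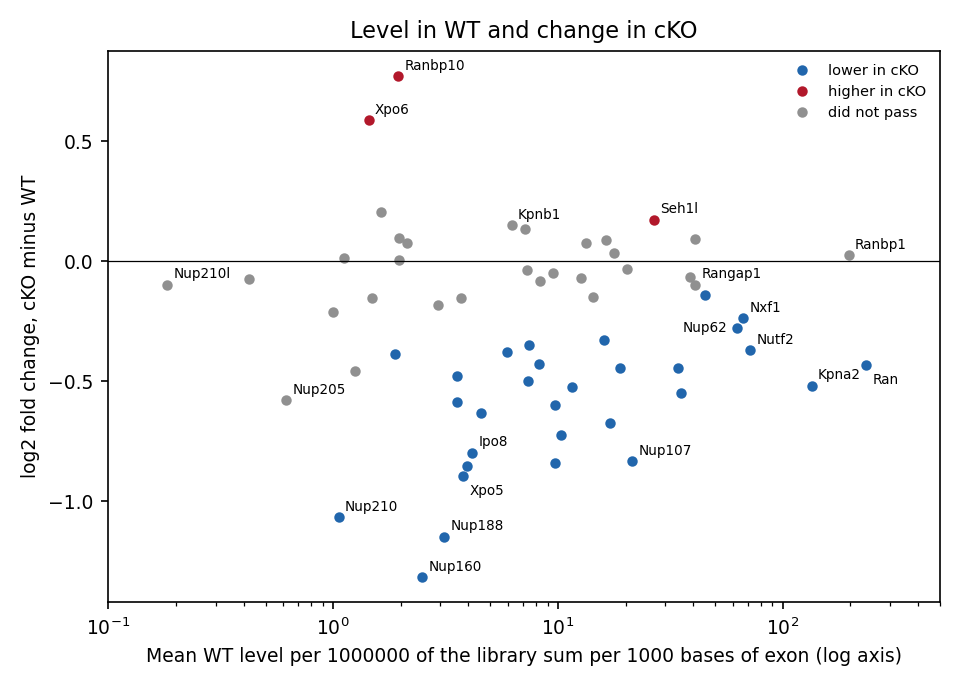
Mean WT level per 1000000 of the library sum and per 1000 bases of exon (horizontal log axis) against log2 fold change (vertical axis) for the 61 tested members, coloured by call. Ran, Ranbp1 and Kpna2 lie farthest right, and Nup160, Nup188 and Nup210 lie lowest.

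Other genes of the pathway, taken from lists that the rule did not use, moved in both directions. Beside them, 17.8% of all tested genes were called lower and 19.5% higher. Of 13 other pore and transport genes 4 fell and 4 rose. Senp1, a protease found at the pore, fell (log2 fold change -1.09, SE 0.09, limma adjusted p = 6.17e-10), as did Heatr3, a carrier for a ribosomal protein (-0.71, SE 0.08). Ahctf1, which starts pore assembly on chromatin and recruits the Y complex, rose by 0.70 (SE 0.11, limma adjusted p = 1.31e-05). Of 18 messenger RNA export genes 6 fell and 3 rose. The export helicase gene Ddx39b fell by 0.91 (SE 0.06, limma adjusted p = 5.59e-12) and the cap-binding gene Ncbp1 by 0.40 (SE 0.07). Nxt2, a partner of Nxf1 family receptors, rose by 0.72 (SE 0.09) and the THO subunit gene Thoc1 by 0.20 (SE 0.04), the latter not under library sum scaling (0.07). With a prior variance that did not follow the level the calls of Ahctf1, Ncbp1 and Thoc1 were lost (limma adjusted p = 0.0716, 0.0656 and 0.154).

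Of 15 nuclear lamina and envelope genes 5 fell and 4 rose. The log2 level of the B-type lamin gene Lmnb1 fell by 1.68 (SE 0.07, limma adjusted p = 1.52e-15), the lamin B receptor gene Lbr by 0.86 (SE 0.05) and the lamin-binding gene Tmpo by 1.40 (SE 0.16). The A-type lamin gene Lmna rose by 0.54 (SE 0.03, limma adjusted p = 1.41e-12). Over all 46 related genes tested, 15 fell (32.6%) and 11 rose (23.9%), beside 17.8% and 19.5% of all tested genes. Their median log2 fold change was -0.12. With a prior variance that did not follow the level 7 fell and 2 rose, beside 7.02% and 7.58% of all genes. Under library sum scaling 24 fell and 7 rose, beside 26.1% and 13.7% of all genes.

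**Figure D4:**
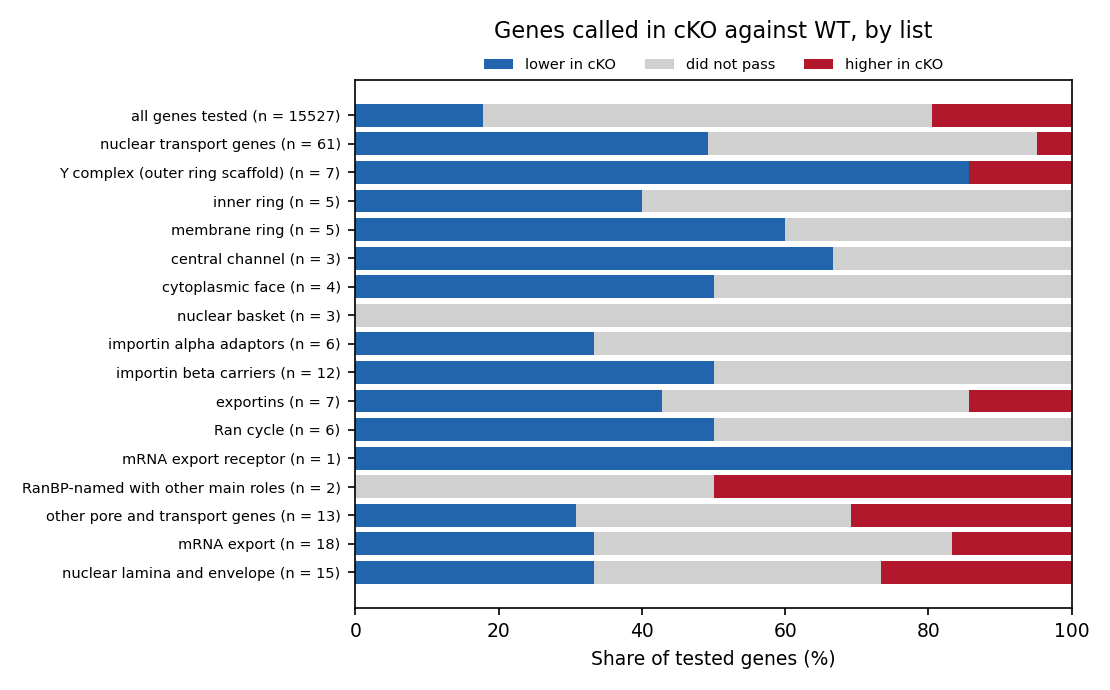
Share of tested genes called lower (blue), called higher (red) or not passing (grey) in cKO against WT, for all genes, the 61 members, each role and the 3 related lists, with the number tested in brackets. The members show 49.2% lower beside 17.8% of all genes, and the basket shows no called gene.

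The stretches before the start sites are shown for 4 members: the one with the largest fall, the abundant adaptor Kpna2, a channel gene that fell, and an exporter that rose. RefSeq promoters on GRCm38.p6, from 250 bases before to 50 after each annotated start, were matched for 49 of the 62 members (58 promoters). They were searched on both strands for ATTGG (the inverted CCAAT or Y-box core after which Ybx1 is named), the E-box CACGTG, GGCGGGAA (E2F-like) and TTTGAA (a cell cycle element). Each line gives the 250 bases before the RefSeq start, 5′ to 3′ on the gene's strand, with matches in either direction in capitals. By the GENCODE M21 exons, 16 of these bases for Kpna2 and 20 for Nup54 lie within an exon, so distances to the start depend on the annotation.
Nup160, chr2:90676965-90677214, forward: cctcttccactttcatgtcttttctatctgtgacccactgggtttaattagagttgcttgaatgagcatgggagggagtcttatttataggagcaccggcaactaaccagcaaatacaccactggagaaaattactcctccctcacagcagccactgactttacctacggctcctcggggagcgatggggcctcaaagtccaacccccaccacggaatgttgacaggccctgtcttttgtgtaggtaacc
Kpna2, chr11:106999526-106999775, reverse: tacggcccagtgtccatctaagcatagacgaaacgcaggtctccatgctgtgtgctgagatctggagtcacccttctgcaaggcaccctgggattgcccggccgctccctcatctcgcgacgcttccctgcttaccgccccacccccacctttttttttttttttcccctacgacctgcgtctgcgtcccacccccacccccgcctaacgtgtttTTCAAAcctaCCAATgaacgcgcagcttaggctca
Nup54, chr5:92435200-92435449, reverse: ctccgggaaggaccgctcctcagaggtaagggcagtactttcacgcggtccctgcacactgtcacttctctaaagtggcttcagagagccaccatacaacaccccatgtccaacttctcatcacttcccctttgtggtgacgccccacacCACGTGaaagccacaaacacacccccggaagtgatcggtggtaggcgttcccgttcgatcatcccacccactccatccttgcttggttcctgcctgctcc
Xpo6, chr7:126200502-126200751, reverse: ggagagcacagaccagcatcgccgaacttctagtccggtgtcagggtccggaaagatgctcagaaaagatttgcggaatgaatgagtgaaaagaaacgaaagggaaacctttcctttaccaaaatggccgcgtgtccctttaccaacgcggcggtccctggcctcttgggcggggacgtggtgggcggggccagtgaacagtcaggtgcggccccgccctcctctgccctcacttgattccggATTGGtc
The Nup160 stretch held no match. That of Kpna2 held TTCAAA starting 35 bases and CCAAT starting 25 bases before the RefSeq start, that of Nup54 held CACGTG at 100, and that of Xpo6 held ATTGG at 7.

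Over the full 300 base windows, ATTGG was found in 41.4% of the members' promoters, in 37.8% of the 13462 promoters of tested genes and in 37.4% of all 32851 promoters in the table. It was in 32.3% of the 31 promoters of members that fell and in 52.0% of the 25 of members not called. CACGTG was in 13.8% of the members' promoters, 9.46% of those of tested genes and 7.15% of all. It was in 19.4% of the promoters of members that fell (6 of 31) and in 8% of those not called (2 of 25). GGCGGGAA was in 5.17% of the members' promoters (3 of 58), 3.85% of those of tested genes and 2.19% of all. TTTGAA was in 24.1%, 13% and 17.9% in the same order. In the promoters of members that fell and of members not called, GGCGGGAA was in 6.45% and 4%, and TTTGAA in 25.8% and 24%. These shares describe letters in a window, and some genes have several promoters in the table.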

How the data were processed

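RNA-seq values of 4 libraries of mouse bone marrow leukaemia cells were used, 2 WT and 2 Ybx1 cKO. The deposited table gives 1 score per gene and library, from -3.19 to 27.9, on a log scale whose base and transformation are not given in the sources used here; 0 columns were left out. The submitters' processing notes name DESeq2, featureCounts, HISAT2 2.1.0, CASAVA and the build GRCm38 without saying what each was used for, and whether strand was used is not stated. Columns were matched to samples by title.

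Scores were multiplied by 0.693. On that reading the replicate noise between scores of 5 and 16 was a median of 1.10 (WT) and 1.31 (cKO) times Poisson noise, taking back-transformed levels as reads. It was 4.85 and 5.94 times for plain log2. Library sums were then 11074317 to 11157952 in WT and 12104617 to 12134026 in cKO. These are not known to be counts, so no counting error is given, and the closeness of replicates was itself used to choose the factor.

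The test took the 15527 genes whose score reached 1 in 2 or more libraries and was made with limma 3.58.1 in R 4.3.3 (two-sided, lmFit and then eBayes with trend, Benjamini-Hochberg adjustment). The design had allowed for counts as well, which the table does not hold. With 2 libraries per group, most of each gene's variance estimate comes from genes of a similar level. The test was first tested on simulated data in which 200 of 15527 genes were changed, while 5803 were called in the real data. The simulated noise was normal and the same for all genes of a similar level. In 1 random draw the test recovered 20% of 1.25-fold, 46% of 1.5-fold, 56% of 2-fold and 90% of 4-fold changes. Of its calls 1.85% were false. These shares moved with the draw and, with so few genes changed, need not hold for the real data. A gene that did not pass may still have changed.

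The members and all lists (roles, related genes, markers) were chosen with earlier results of these data known, so lists are described and not tested. Named in full were Ran, Kpnb1, Xpo1, Kpna2 and Nxf1 and, per role, the largest called fall and rise and the 2 smallest p-values; every other member is named with fewer values, as are genes whose call rests on 1 library. Of each related list up to 4 called genes with the smallest p-values were named, except for results not reported here; Sec13, Nupl1, Nupl2 and Xpot were added after their values were seen. Positions and exon lengths come from GENCODE M21 (GRCm38), which held all 62 members, and promoters from RefSeq on GRCm38.p6. Alternatives were other filters, priors and scalings, a replicate block and leaving out each library. Python 3.11.15, pandas 2.3.3, numpy 2.4.6 and matplotlib 3.10.9 were used.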

Additional observations from a re-analysis of the deposited data

How the results depend on the processing

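Of the 33 called members, 14 (13 lower, Ranbp10 higher) kept their call under all 13 alternatives, the same 14 that passed with a prior variance that did not follow the level. A fit without 1 library leaves 1 library in its group, and its variance comes mostly from other genes. Many adjusted p-values became smaller in such fits, so a call kept there says little about stability. The calls of Seh1l, Nup155 and Rae1 were lost in at least 1 of them. The log2 fold change of Nup155 ranged from -0.62 to -0.15, and that of Kpna2 from -0.53 to -0.50. The prior variance that did not follow the level cut the calls to 14 members, 2267 genes in all and 9 related genes. Under quantile normalization Ranbp1 turned from 0.03 to -0.0924 and was called, and library sum scaling, chosen after seeing the data, gave -0.0982. Library sum scaling also called Nup205, Nup35, Pom121, Nup88, Ranbp2, Nup50, Tpr, Tnpo1, Tnpo3, Ipo13, Xpo7 and Rangap1 lower. Whole-table calls split into 3035 higher and 2768 lower, and into 2132 and 4047 under library sum scaling. With no filter on low values 27 members were called, without Nup43, Nup155, Nup54, Nup214, Rae1 and Xpo6; the stricter filter, the robust prior and the plain log2 reading each gave 33. The replicate numbers are only numbers: the WT and cKO replicate differences correlated at 0.013 across genes, and a fit with a replicate block called 34 members (Nup205 added), 27 related genes and 6026 in all. Depth is unknown, so how far low genes such as Nup205 or Nup210l are limited by counting cannot be given.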

Other observations

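The cKO libraries differed from each other more than the WT libraries did for 40 of the 62 members (64.5%), beside 54.9% of all tested genes. The members' median gap between replicates was 0.07 on the log2 scale in WT and 0.11 in cKO, beside 0.13 and 0.15 over all tested genes. Nup205, Nup155, Pom121 and Ranbp2 each stood higher in cKO replicate 2 than in cKO replicate 1, whereas Nup160, Ipo8, Xpo5 and Cse1l stood higher in cKO replicate 1. The row of the copy Nutf2-ps1 had log2 levels of 3.33 and 3.09 in WT and 3.86 and 3.98 in cKO and did not pass (log2 fold change 0.71, SE 0.38, limma adjusted p = 0.157).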
